A study of Mus musculus with 16 samples.

Results

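Acute-phase proteins are secreted or membrane proteins whose production climbs within hours of an infection or injury, and 10 genes of this class were followed in the mouse heart after endotoxin. They were Lcn2, Saa1, Saa2, Saa3, Orm1, Orm2, Serpina3n, Lrg1, Ptx3 and Steap4, of 18193 genes measured in all. Each gene was represented by the probe set (the group of short probes that the array maker assigned to a transcript) annotated with that 1 symbol and, where a gene had several, by the one with the highest mean over the 16 arrays. The members had 13 such probe sets in all, and the 3 not used served as a check for Saa1, Ptx3 and Steap4.

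The hearts came from male mice on a CD1 background, 14 weeks of age, that either lacked the adenosine 2A receptor (A2AR knockout, KO) in a line bred as a sub-colony of the original one, or were wild-type (WT) littermates of the same breeding series. A single intraperitoneal dose of Escherichia coli lipopolysaccharide (LPS) at 20 mg/kg, or saline in the same volume, had been given 24 h before the ventricular myocardium was taken. This gave WT saline, WT LPS, KO saline and KO LPS groups of 4 arrays each. The labels do not say outright that each array is a separate animal, so p-values measure the spread between these samples. The transcript of the deleted receptor is not analysed here, so the genotypes rest on the labels.

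In the liver the acute-phase response is driven by interleukin-6 acting through STAT3, and by interleukin-1 and tumour necrosis factor acting through NF-kB and the C/EBP transcription factors. The products scavenge iron, lipid and proteases, tag microbes for uptake, or limit tissue damage. Several members of the class are also made outside the liver, among them Saa3, Lcn2 and Ptx3, which endothelial cells, fibroblasts and myeloid cells can produce.

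All values are log2 signals, so a difference of 1 is a doubling. The median over all probe sets lay between 4.62 and 4.67 on every array, and the highest probe set of an array read between 14.28 and 14.51. A probe set under its array's median is called low here, and its value may hold mostly background. Of the members, 7 passed a filter for such low values, and Saa2, Orm1 and Orm2 did not. Cardiomyocyte marker genes averaged 13.58 to 14.05 on all 16 arrays. Some arrays stood apart. WT LPS array 4 had the lowest limma array weight (0.22) and KO LPS array 2 the next lowest (0.28), while the other 14 had weights from 0.68 to 1.91. WT saline arrays 1 and 4 carried high skeletal muscle markers, with mean levels of 6.03 and 7.79 against 3.95 to 4.16 elsewhere. Of the 10 members, 8 rose in WT and 9 in KO hearts both without WT LPS array 4 and KO LPS array 2 and without WT saline arrays 1 and 4, the same counts as with all 16 arrays. Of all 18193 genes, 5723 and 2061 were called in WT hearts in these 2 settings, against 3798 with all arrays. In KO hearts the counts were 5373 and 4191, against 4744.

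The regulatory sequence just upstream of the members is shown first, because most of these genes rose after LPS and the C/EBP, NF-kB and STAT families are the textbook regulators of the acute-phase response. RefSeq promoters (build GRCm38.p6) were at hand for 9 of the 10 genes, all but Orm1, and the 250 bases before each start site were searched on both strands. The motifs were TTGCNNAA for C/EBP, TTCNNNGAA for STAT, TATAAA for the TATA box, and the NF-kB consensus. The C/EBP motif was present in 7 of the 9 members (Lcn2, Saa1, Saa2, Saa3, Orm2, Ptx3 and Steap4), against 9.56% of the 32851 promoters in the table. It was not found in the windows of Serpina3n and Lrg1, which are not printed here, and both genes rose with LPS in both genotypes. Orm2 holds a match, and its rise was not called in either genotype. The other motifs were rarer among the members. The NF-kB motif occurred in 1 of 9 (3.9% of all promoters), the STAT motif in 1 of 9 (7.02%), and the TATA box in 2 of 9 (12.4%). The TATA match of Orm2 lies on the strand of the gene, 33 to 28 bases before the start. That of Steap4 lies on the opposite strand, 215 to 210 bases before the start. A match describes the letters only, and no binding was measured.

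The promoters of Lcn2, Saa3, Saa1 and Saa2 are printed 5′ to 3′ in the direction of the gene, with the C/EBP match in capitals. That match lies 216 to 209 bases before the start of Lcn2, 99 to 92 before that of Saa3, 182 to 175 before that of Saa1 and 183 to 176 before that of Saa2. In a global alignment Saa1 and Saa2 share 238 of 250 bases, or 95.2%, with the same letters at the match, whereas Saa1 and Saa3 share 145 of 250.
Lcn2, chr2:32387740-32387989, minus strand: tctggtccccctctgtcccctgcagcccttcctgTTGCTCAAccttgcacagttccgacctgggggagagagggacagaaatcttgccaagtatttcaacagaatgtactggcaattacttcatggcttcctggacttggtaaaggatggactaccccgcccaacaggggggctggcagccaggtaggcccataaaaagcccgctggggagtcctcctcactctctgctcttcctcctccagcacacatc
Saa3, chr7:46715677-46715926, minus strand: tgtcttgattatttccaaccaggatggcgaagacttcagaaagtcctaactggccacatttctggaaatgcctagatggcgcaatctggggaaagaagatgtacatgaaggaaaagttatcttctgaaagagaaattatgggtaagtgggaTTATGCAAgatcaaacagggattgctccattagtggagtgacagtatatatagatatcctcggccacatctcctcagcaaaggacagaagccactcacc
Saa1, chr7:46742981-46743230, minus strand: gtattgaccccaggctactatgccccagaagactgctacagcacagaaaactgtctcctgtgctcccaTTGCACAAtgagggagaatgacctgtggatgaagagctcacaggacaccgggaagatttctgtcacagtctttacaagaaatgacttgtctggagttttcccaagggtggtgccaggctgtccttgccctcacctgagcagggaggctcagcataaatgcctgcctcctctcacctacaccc
Saa2, chr7:46751583-46751832, plus strand: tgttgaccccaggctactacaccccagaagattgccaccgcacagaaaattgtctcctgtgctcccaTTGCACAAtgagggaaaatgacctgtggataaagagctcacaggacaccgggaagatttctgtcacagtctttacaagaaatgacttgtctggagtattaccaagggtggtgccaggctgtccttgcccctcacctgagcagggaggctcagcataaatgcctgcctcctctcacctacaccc

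Steap4 is the member in whose window the NF-kB, STAT and C/EBP motifs all occurred. In its promoter the capitals mark, from left to right, both NF-kB matches (250 to 241 and 226 to 217 bases before the start), the STAT match (116 to 108) and the C/EBP match (87 to 80). The C/EBP matches of Ptx3 (57 to 50 bases before the start) and Orm2 (120 to 113) are shown with their neighbouring bases.
Steap4, chr5:7960222-7960471, plus strand: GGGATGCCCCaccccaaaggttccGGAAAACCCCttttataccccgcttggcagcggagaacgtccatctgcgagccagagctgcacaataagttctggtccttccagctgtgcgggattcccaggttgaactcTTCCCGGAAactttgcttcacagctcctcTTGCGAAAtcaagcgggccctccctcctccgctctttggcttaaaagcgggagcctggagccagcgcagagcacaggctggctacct
Ptx3, chr3:66219820-66219847, plus strand: tggtttaacaTTGTGCAAcctcttcagc
Orm2, chr4:63362319-63362346, plus strand: agagaacattTTGCGCAAgacatttccc

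LPS raised most of the group in both genotypes. In wild-type hearts 8 of the 10 genes rose and none fell at an adjusted p under 0.05, where 20.9% of all genes were called and 9.28% were called higher. In knockout hearts 9 of 10 rose, where 26.1% of all genes were called and 11.4% were called higher. The median change of the 10 genes was 3.86 in WT and 3.68 in KO hearts, against -0.00 and -0.02 over all genes. The LPS arrays lay entirely above the saline arrays for 9 of 10 members in each genotype, against 10.9% of all genes in WT and 12.3% in KO hearts. The exceptions were Steap4 in WT and Orm2 in KO hearts. Of the members, 6 were called and rose at least 8-fold in each genotype, a size reached by 0.462% and 0.500% of all genes. Saa1 is among these 6 and was low in all saline arrays, and its changes were under 8-fold with every value under the array median set to that median (2.12 and 1.74) and by its further probe set (2.35 and 2.74).

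**Figure D1:**
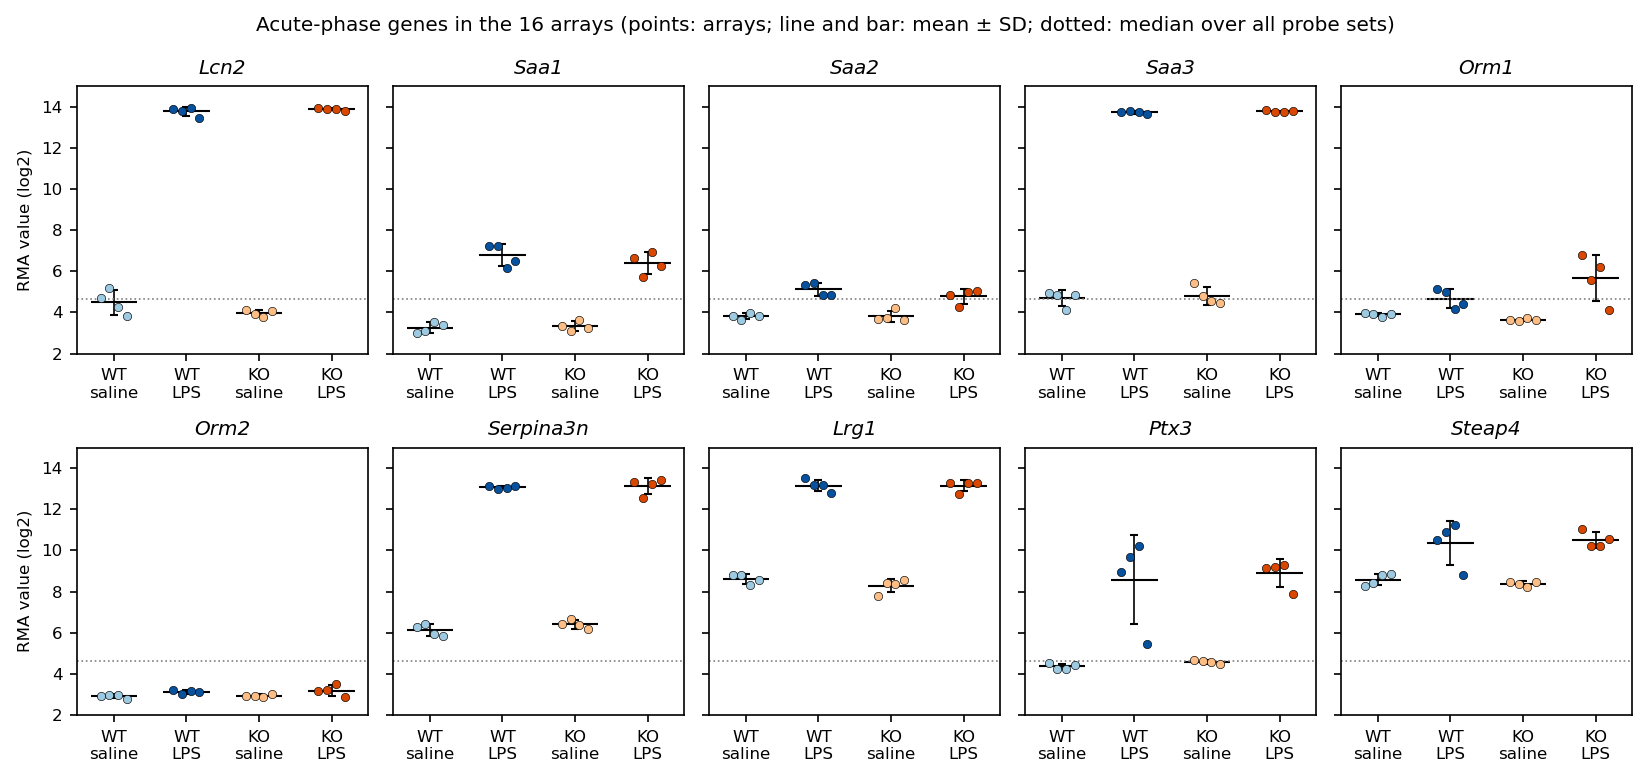
Log2 signal (vertical axis) of the 10 acute-phase genes in WT saline, WT LPS, KO saline and KO LPS hearts, with 1 point per array, the line and bar giving the mean and SD of 4 arrays, and the dotted line the median over all probe sets. Lcn2 and Saa3 go from near the dotted line to above 13 in every LPS array, whereas Orm2 stays below the line in all 16 arrays.

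Lcn2 encodes lipocalin 2, which binds bacterial siderophores and so keeps iron from microbes. In saline hearts it read 4.68, 5.18, 4.27 and 3.80 in wild-type and 4.13, 3.92, 3.77 and 4.05 in knockout arrays. After LPS it read 13.89, 13.80, 13.92 and 13.44 in wild-type and 13.92, 13.89, 13.86 and 13.79 in knockout arrays. All 8 LPS arrays were far above all 8 saline arrays, with little spread among them, and 6 of the 8 saline arrays were low. The change was 9.28 ± 0.21 (SE, n = 4 against 4, adjusted p = 9.02e-15) in WT and 9.90 ± 0.21 (adjusted p = 3.13e-15) in KO hearts, the largest rise of all 18193 genes in both genotypes. These are 623-fold and 954-fold rises in signal. Because the saline values are low, the size depends on how background is treated, and with every value under its array's median set to that median the changes were 8.98 and 9.22.

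Saa3 encodes serum amyloid A3, the form of this apolipoprotein-like acute-phase protein that is made mainly outside the liver in mice. It read 4.93, 4.83, 4.13 and 4.87 in WT saline and 5.42, 4.78, 4.53 and 4.48 in KO saline arrays. After LPS it read 13.75, 13.81, 13.74 and 13.63 in wild-type and 13.83, 13.73, 13.73 and 13.76 in knockout arrays. The LPS arrays spanned a narrow range well clear of the saline arrays. The rise was 9.04 ± 0.19 (527-fold, adjusted p = 5.04e-15) in WT and 8.96 ± 0.19 (498-fold, adjusted p = 3.13e-15) in KO hearts, the second largest of all genes in each. In the LPS hearts both Lcn2 and Saa3 read within about 1 log2 unit of the highest probe set on the array.

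Saa1 and Saa2 encode the serum amyloid A forms that circulate on high-density lipoprotein. The probe set used for Saa1 and that of Saa2 carry the same transcript accession, which RefSeq lists under Saa2, so these values cannot be told apart by gene. The Saa1 probe set read 3.00, 3.10, 3.54 and 3.40 in WT saline, and 7.25, 7.20, 6.16 and 6.48 in WT LPS arrays. In knockout hearts it read 3.34, 3.11, 3.65 and 3.25 after saline and 6.66, 5.71, 6.93 and 6.27 after LPS. It was low in all 8 saline arrays and above the array median in all 8 LPS arrays, with no overlap. The change was 3.51 ± 0.26 (11.4-fold, adjusted p = 6.06e-08) in WT and 3.06 ± 0.26 (8.32-fold, adjusted p = 2.65e-07) in KO hearts. With the floor at the array median, the changes were 2.12 and 1.74. A further Saa1 probe set, whose accession RefSeq lists under Saa1 itself, read 3.40 to 3.67 in WT saline and 5.16 to 6.49 in WT LPS arrays, and its changes were 2.35 ± 0.29 and 2.74 ± 0.29.

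Saa2 read 3.82, 3.64, 3.99 and 3.84 in WT saline, and 5.33, 5.43, 4.85 and 4.85 in WT LPS arrays. In knockout hearts the values were 3.68, 3.72, 4.20 and 3.62 after saline and 4.85, 4.25, 4.98 and 5.05 after LPS. The groups did not overlap in either genotype, although the lowest KO LPS array, at 4.25, was only just above the highest KO saline array, at 4.20. Saa2 rose by 1.29 ± 0.18 (adjusted p = 6.25e-05) in WT and 0.98 ± 0.18 (adjusted p = 0.000659) in KO hearts. With values under the array median set to that median, the changes were 0.47 and 0.23, and the call in knockout hearts was lost (adjusted p = 0.197). Over the 16 arrays, after each group's mean was subtracted, the Saa1 probe set used had a Pearson correlation of 0.83 with that of Saa2 and 0.88 with the further Saa1 probe set, against -0.12 with Saa3. The points of these correlations share arrays and normalization.

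Orm1 and Orm2 encode orosomucoids, also called alpha-1-acid glycoproteins, abundant plasma carriers of small molecules. Orm1 read 3.97, 3.94, 3.78 and 3.91 in WT saline and 5.12, 4.99, 4.15 and 4.39 in WT LPS arrays. In knockout hearts it read 3.63, 3.58, 3.72 and 3.64 after saline and 6.77, 5.59, 6.18 and 4.12 after LPS. Every LPS array exceeded every saline array of its genotype, but 3 of the 8 LPS arrays were still low, and KO LPS array 4 lay far under the other KO LPS arrays. The change of 2.03 ± 0.38 in knockout hearts passed the test (4.08-fold, adjusted p = 0.000698), and that of 0.77 ± 0.38 in wild-type hearts did not (adjusted p = 0.179). All 8 saline values were low, and with values under the array median set to that median the changes were 0.19 in wild-type and 1.14 in knockout hearts, the latter still called. Without KO LPS array 4, which lowers the shared estimate of the spread, the wild-type change was also called (adjusted p = 0.0189).

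Orm2 was low in all 16 arrays. It read 2.80 to 2.97 in WT saline, 3.00 to 3.23 in WT LPS, 2.86 to 3.02 in KO saline and 2.86 to 3.49 in KO LPS arrays. The differences of 0.21 ± 0.10 in wild-type (adjusted p = 0.148) and 0.24 ± 0.10 in knockout hearts (adjusted p = 0.0784) did not pass the test. Without KO LPS array 4 the knockout difference was 0.35 (adjusted p = 0.00411).

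Serpina3n encodes a secreted serine protease inhibitor of the antichymotrypsin family. It read 6.26, 6.44, 5.95 and 5.86 in WT saline and 6.42, 6.66, 6.37 and 6.16 in KO saline arrays. After LPS it read 13.15, 13.01, 13.03 and 13.13 in wild-type and 13.34, 12.52, 13.22 and 13.40 in knockout arrays. The saline values were above the array median throughout, and the LPS values were tightly grouped except for KO LPS array 2. The rise was 6.95 ± 0.17 (124-fold, adjusted p = 3.79e-14) in WT and 6.72 ± 0.17 (105-fold, adjusted p = 6.62e-14) in KO hearts, the third largest of all genes in each. Of the related serpin A3 genes only 2 of 10 had a probe set of their own, and 1 of them, Serpina3i, rose in both genotypes (1.86 ± 0.31 and 2.13 ± 0.31). The serpin A3 genes are close relatives, and sharing of signal between them was not tested.

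Lrg1 encodes leucine-rich alpha-2-glycoprotein 1, which modulates transforming growth factor beta signalling in endothelium. It was already well above the array median in saline hearts, at 8.78, 8.80, 8.33 and 8.55 in wild-type and 7.80, 8.40, 8.38 and 8.57 in knockout arrays. After LPS it read 13.50, 13.16, 13.15 and 12.80 in wild-type and 13.27, 12.73, 13.30 and 13.27 in knockout arrays. The groups were far apart in both genotypes. Lrg1 rose by 4.54 ± 0.18 (23.2-fold, adjusted p = 2.42e-11) in WT and 4.85 ± 0.18 (28.9-fold, adjusted p = 8.27e-12) in KO hearts.

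Ptx3 encodes pentraxin 3, a soluble pattern-recognition protein that activates complement. It read 4.25 to 4.51 in WT saline and 4.48 to 4.68 in KO saline arrays. After LPS it read 8.95, 9.68, 10.24 and 5.44 in wild-type and 9.15, 9.21, 9.31 and 7.87 in knockout arrays. All LPS arrays were above all saline arrays, of which 7 of 8 were low, but the array numbered 4 was the lowest of each LPS group. The change was 4.21 ± 0.69 (18.5-fold, adjusted p = 0.000289) in WT and 4.30 ± 0.69 (19.7-fold, adjusted p = 0.000186) in KO hearts. With values under the array median set to that median, the changes were 3.93 and 4.23. Without WT LPS array 4 the wild-type change was 5.26, and without WT LPS array 3 it was 3.66. A further Ptx3 probe set read 3.57 to 4.13 on all arrays and did not pass the test, at 0.19 (adjusted p = 0.229) and 0.08 (adjusted p = 0.643). With the mean of both probe sets in place of the higher one, the changes were 2.20 and 2.19.

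Steap4 encodes a membrane metalloreductase that reduces iron and copper and is induced by inflammatory cytokines in fat. It read 8.26, 8.44, 8.79 and 8.84 in WT saline and 8.47, 8.37, 8.23 and 8.46 in KO saline arrays. After LPS it read 10.50, 10.90, 11.21 and 8.82 in wild-type and 11.03, 10.23, 10.24 and 10.55 in knockout arrays. WT LPS array 4 lay within the range of the WT saline arrays, whereas the other 7 LPS arrays were above all saline arrays. Steap4 rose by 1.78 ± 0.36 (3.43-fold, adjusted p = 0.00166) in WT and 2.13 ± 0.36 (4.37-fold, adjusted p = 0.000297) in KO hearts. Without WT LPS array 4 the wild-type change was 2.29. The further Steap4 probe set also rose, by 1.93 ± 0.57 (adjusted p = 0.0250) and 1.97 ± 0.57.

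**Figure D2:**
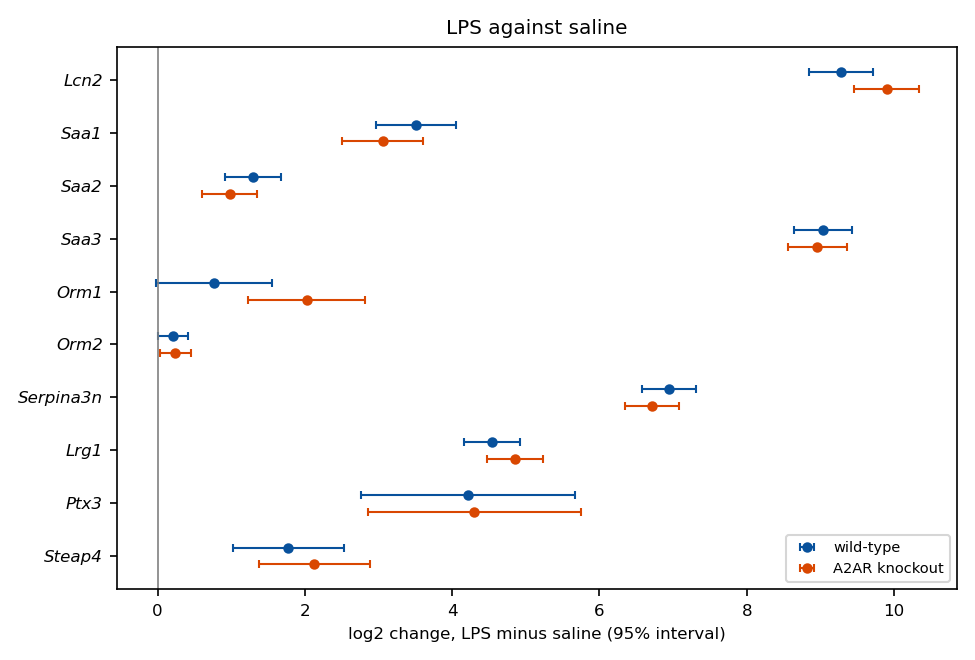
Log2 change from saline to LPS (horizontal axis) with its 95% interval for the 10 genes, in wild-type and A2AR knockout hearts. Lcn2, Saa3 and Serpina3n changed by 6.72 to 9.90, and the interval of Orm2 is near 0 in both genotypes.

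The members did not all vary together from heart to heart. After the group means were subtracted, Ptx3 and Steap4 had a Pearson correlation of 0.85 over the 16 arrays, Saa1 and Saa2 had 0.83, Orm1 and Orm2 had 0.54, and Serpina3n and Lrg1 had 0.48. The closest member to Lcn2 was Serpina3n, at 0.39, and the closest to Saa3 was Lcn2, at 0.28. These are descriptions of 16 arrays that share a normalization, and no p is given. WT LPS array 4 deviated from its group mean by -3.14 for Ptx3 and -1.53 for Steap4, but by -0.32 for Lcn2, -0.11 for Saa3 and 0.05 for Serpina3n. This array weighs heavily in the correlation of Ptx3 with Steap4, which was not computed without it. In KO LPS arrays 1 to 4, Ptx3 deviated by 0.27, 0.32, 0.43 and -1.02. Steap4 deviated there by 0.52, -0.281, -0.275 and 0.04, so the pair did not vary together in that group. KO LPS array 4 deviated by -1.54 for Orm1 and -1.02 for Ptx3. KO LPS array 2 was lowest for 5 of the 10 genes and deviated by -0.60 for Serpina3n and -0.69 for Saa1.

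**Figure D3:**
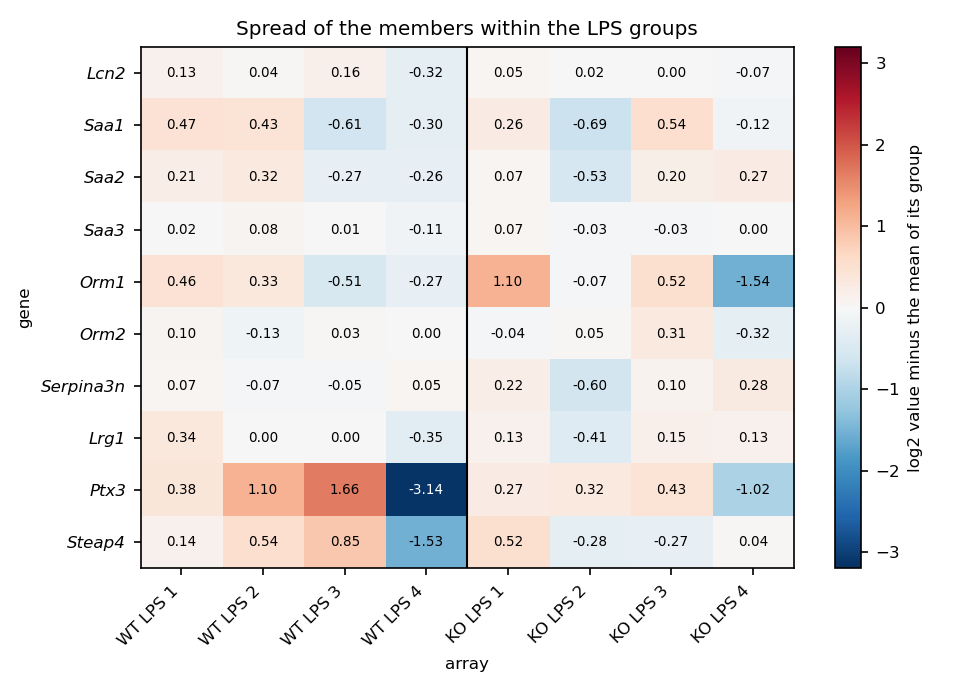
Log2 value minus the mean of its group, printed and coloured for each member (rows) in each of the 8 LPS arrays (columns). The darkest cells are Ptx3 in WT LPS array 4 (-3.14) and WT LPS array 3 (1.66), followed by Orm1 in KO LPS array 4 (-1.54) and Steap4 in WT LPS array 4 (-1.53).

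Il6 and Socs3, which act in the pathway, also had their lowest WT LPS value on array 4. They are examples from the pathway lists, which were chosen with earlier results known. Other genes of these lists also spread widely over the WT LPS arrays, such as Tnfaip3 (7.26 to 9.59) and Zfp36 (7.28 to 9.69). Il6, the gene of the main inducer of the acute-phase response, read 7.34, 9.13, 9.02 and 3.61 in WT LPS and 8.84, 9.44, 8.11 and 5.63 in KO LPS arrays, against 2.98 to 3.38 in the saline arrays. Socs3, a feedback inhibitor that interleukin-6 signalling induces, read 10.41, 10.90, 10.45 and 8.22 in WT LPS and 10.50, 10.11, 10.48 and 9.61 in KO LPS arrays. In both Il6 and Socs3 the array numbered 4 was the lowest of each LPS group, as it was for Ptx3. For Steap4 this held in WT hearts only, as KO LPS array 4 read 10.55 against 10.23 in KO LPS array 2. Marker genes of other cells also differed on WT LPS array 4, where macrophage and monocyte markers averaged 8.15 against 6.86 to 7.50 in the other WT LPS arrays, and endothelial markers 8.74 against 7.84 to 8.00. The part of Il6, Socs3 and these cell types in the spread of Ptx3 and Steap4 was not tested.

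Loss of the receptor gave no call among the 10 genes. After saline, 0 of 10 differed between knockout and wild-type hearts at an adjusted p under 0.05 by limma, and 1 of 10 had an unadjusted p under 0.05, where 1 of all genes (0.00550%) was called and 634 had an unadjusted p under 0.05. That member was Lcn2, lower in knockout hearts by a log2 difference of -0.51 (95% interval -0.95 to -0.08, unadjusted p = 0.0242, adjusted p = 1), with both groups low or near the array median. Groups without overlap were found for 1 member, Orm1, whose 4 KO saline arrays were all lower, as for 2.08% of all genes, at a difference of -0.26 (-1.05 to 0.54) between low values. No member had all KO saline arrays higher, against 1.81% of all genes. The intervals of Saa3 (-0.28 to 0.51), Serpina3n (-0.09 to 0.64) and Lrg1 (-0.70 to 0.05) allow differences of under 1 log2 unit either way, while that of Ptx3 (-1.23 to 1.67) is wider.

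After LPS the genotypes again showed 0 calls of 10 by limma, and 1 of 10 genes had an unadjusted p under 0.05, where 0.00550% of all genes were called and 1375 had an unadjusted p under 0.05. The groups overlapped for all 10 members, while knockout arrays lay entirely higher for 1.08% and entirely lower for 1.18% of all genes. The differences were 0.10 (95% interval -0.34 to 0.54) for Lcn2, 0.03 (-0.36 to 0.43) for Saa3, 0.04 (-0.33 to 0.41) for Serpina3n and -0.01 (-0.39 to 0.37) for Lrg1. The intervals of these 4 genes stay under 1 log2 unit either way. Lcn2 and Saa3 read close to the highest probe set of the array here, and whether this narrows a difference between the genotypes was not tested. Orm1 was the member with the unadjusted p under 0.05, at 1.01 (0.21 to 1.80, unadjusted p = 0.0161, adjusted p = 0.655), and from 0.64 to 1.52 when each array was left out in turn. The Ptx3 difference of 0.31 (-1.14 to 1.76) turned to -0.74 without WT LPS array 4 and was 0.86 without WT LPS array 3.

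The LPS response itself was then compared between genotypes. For the difference of the responses (knockout minus wild-type), 0 of 10 members and 0 of 18193 genes were called by limma, and 1 member and 813 genes had an unadjusted p under 0.05. Orm1 was that member, at 1.26 (95% interval 0.14 to 2.38, unadjusted p = 0.0298, adjusted p = 0.959), and its difference ran from 0.90 without KO LPS array 1 to 1.78 without KO LPS array 4. The call of Orm1 in knockout and not in wild-type hearts is therefore not a called difference between them. Lcn2 differed by 0.62 (-0.00 to 1.24, unadjusted p = 0.0512), Saa3 by -0.08 (-0.64 to 0.48), Lrg1 by 0.31 (-0.22 to 0.85), Steap4 by 0.35 (-0.72 to 1.42) and Ptx3 by 0.09 (-1.96 to 2.14).

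**Figure D4:**
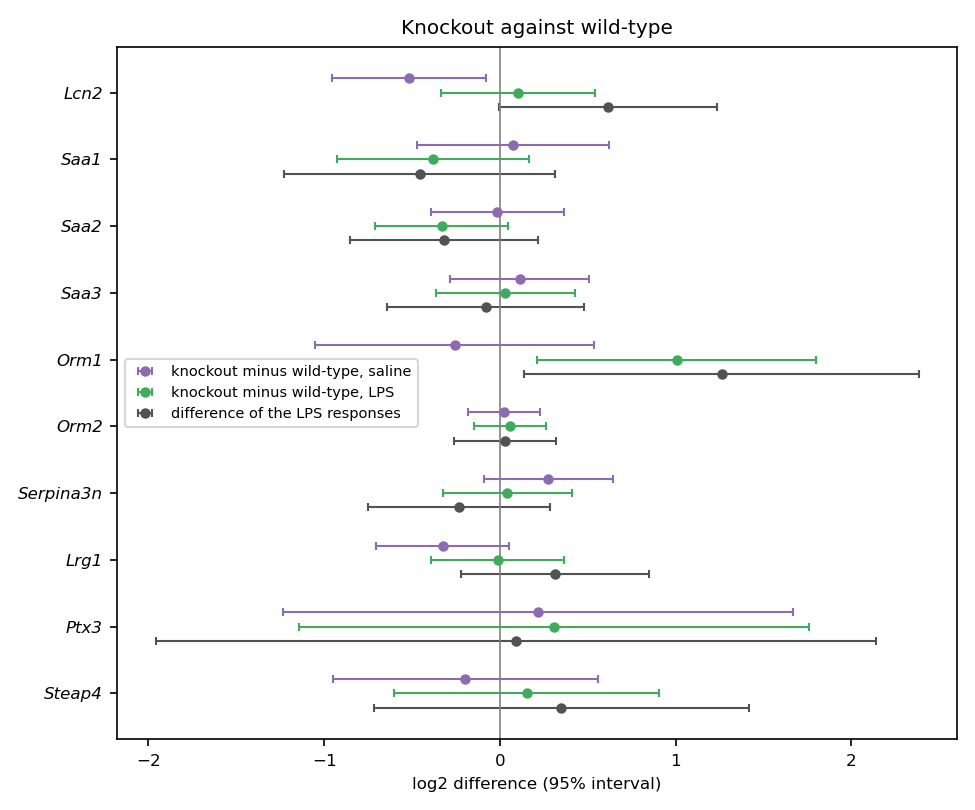
Log2 difference (horizontal axis) with its 95% interval for the 10 genes, for knockout minus wild-type after saline, knockout minus wild-type after LPS, and the difference of the LPS responses. The intervals that leave out 0 are those of Lcn2 after saline (-0.95 to -0.08) and of Orm1 after LPS (0.21 to 1.80) and in the difference of the responses (0.14 to 2.38), and none of these passes adjustment over all genes.

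The genes that induce and restrain the acute-phase response were read from lists of its pathway. Of 100 pathway genes measured, 44 rose and 4 fell in each genotype. Their median changes were 0.27 in WT and 0.24 in KO hearts, against -0.00 and -0.02 over all genes. Of all 18193 genes, 9.28% were called higher and 11.6% lower in WT hearts. In KO hearts these shares were 11.4% and 14.7%, and they stand beside the LPS counts of every list below. No pathway gene was called between the genotypes after saline or after LPS, or in the difference of the responses.

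Among 11 inducing cytokines measured, 4 rose in WT and 3 in KO hearts, and none fell. Il6 rose by 4.08 ± 0.93 (adjusted p = 0.00423) and 4.85 ± 0.93 (adjusted p = 0.000923), and the wild-type change was 5.30 without WT LPS array 4. Il1b rose by 0.54 ± 0.17 in wild-type hearts (adjusted p = 0.0319), a call held in 11 of 16 fits that each left out 1 array, and its change of 0.42 ± 0.17 in knockout hearts was not called (adjusted p = 0.0857). Tnf rose by 0.39 ± 0.10 and 0.47 ± 0.10. The median changes over the list were 0.17 and 0.12.

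Of 13 cytokine receptors measured, 6 rose and 1 fell in each genotype. Osmr, the oncostatin M receptor, rose by 2.39 ± 0.23 and 2.78 ± 0.23, Il17ra, the interleukin-17 receptor, by 1.44 ± 0.26 and 1.76 ± 0.26, and Tnfrsf1a, a receptor of tumour necrosis factor, by 1.42 ± 0.12 and 1.60 ± 0.12. Lifr, the leukaemia inhibitory factor receptor, was the one that fell, at -1.08 ± 0.19 and -1.35 ± 0.19.

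The transcription factors and signal carriers (15 measured) held 9 that rose in each genotype, and 2 that fell in WT and 1 in KO hearts. Nfkbiz, a nuclear co-factor of NF-kB, rose by 3.54 ± 0.39 and 4.03 ± 0.39. Cebpd, the C/EBP family member classically induced by inflammation, rose by 3.06 ± 0.25 and 2.58 ± 0.25, and Myd88, the adaptor of Toll-like and interleukin-1 receptors, by 1.92 ± 0.23 and 2.08 ± 0.23. Nr3c1, the glucocorticoid receptor, fell at -0.98 ± 0.10 and -1.24 ± 0.10, and Cebpa, a C/EBP family member, fell in wild-type hearts at -0.64 ± 0.15 and was not called in knockout hearts, at -0.29 ± 0.15 (adjusted p = 0.186). Lifr, Nr3c1 and Cebpa were picked with their values already known, as the genes of these lists that fell.

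Of the 9 feedback inhibitors, 7 rose in each genotype and none fell, with median changes over the list of 1.37 and 1.61. Socs3 rose by 3.99 ± 0.41 and 4.26 ± 0.41. Tnfaip3, the ubiquitin-editing brake on NF-kB, rose by 2.96 ± 0.35 and 3.22 ± 0.35. Zfp36, which destabilises cytokine messenger RNAs, rose by 1.77 ± 0.37 and 1.65 ± 0.37.

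Other acute-phase proteins known from the liver rose in part, 12 of 22 measured in each genotype and none fell, with median changes of 0.66 and 1.05. Mt2, a metallothionein that binds zinc, rose by 5.60 ± 0.32 and 5.57 ± 0.32, and Cfb, complement factor B, by 3.89 ± 0.19 and 3.69 ± 0.19. Hp, which encodes haptoglobin, the plasma scavenger of haemoglobin, rose by 2.87 ± 0.26 and 4.12 ± 0.26. Hp read 6.64 to 7.32 in WT saline and 5.44 to 5.70 in KO saline arrays, without overlap, but the difference of -1.41 ± 0.26 was not called (adjusted p = 0.167), nor was the difference of the responses (1.26 ± 0.37, adjusted p = 0.959). Of 10 negative acute-phase genes measured, whose products fall in plasma during the response, 1 fell in each genotype and none rose. This was Igf1, which encodes insulin-like growth factor 1, at -2.28 ± 0.24 and -2.37 ± 0.24. Among the others, Alb, Serpina6, Serpina7 and Itih2 were low on all 16 arrays, and Apoa1 and Apoa2 on 14 and 15. A fall of these genes could hardly be seen, so the count does not show that they held their level.

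Relatives and partners of the members were more mixed. None of the 5 other pentraxin genes measured was called in either genotype. Crp, Apcs, Nptx2 and Ptx4 were low on every array, and Nptx1 on 3 of 4 KO LPS arrays and on every array of the other groups. Their values may hold mostly background. In the Steap family, Steap1 rose by 1.12 ± 0.31 and 1.44 ± 0.31, and Steap2 by 0.62 ± 0.19 (adjusted p = 0.0317) and 1.10 ± 0.19. Among 16 fits that each left out 1 array, the wild-type calls held in 14 for Steap1 and 9 for Steap2. Steap3 was called only in knockout hearts, where it fell at -0.45 ± 0.11 (adjusted p = 0.00535), against -0.08 ± 0.11 in wild-type hearts (adjusted p = 0.710), and it was picked with its values already known. Of 13 receptors and partners measured, 4 rose in WT and 5 in KO hearts. Fpr2, a formyl peptide receptor that binds serum amyloid A, rose by 4.52 ± 0.15 and 4.69 ± 0.15. Tlr2 rose by 3.18 ± 0.32 and 3.02 ± 0.32, and Tnfaip6, whose product binds pentraxin 3 in matrix, by 1.08 ± 0.22 and 1.06 ± 0.22.

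**Figure D5:**
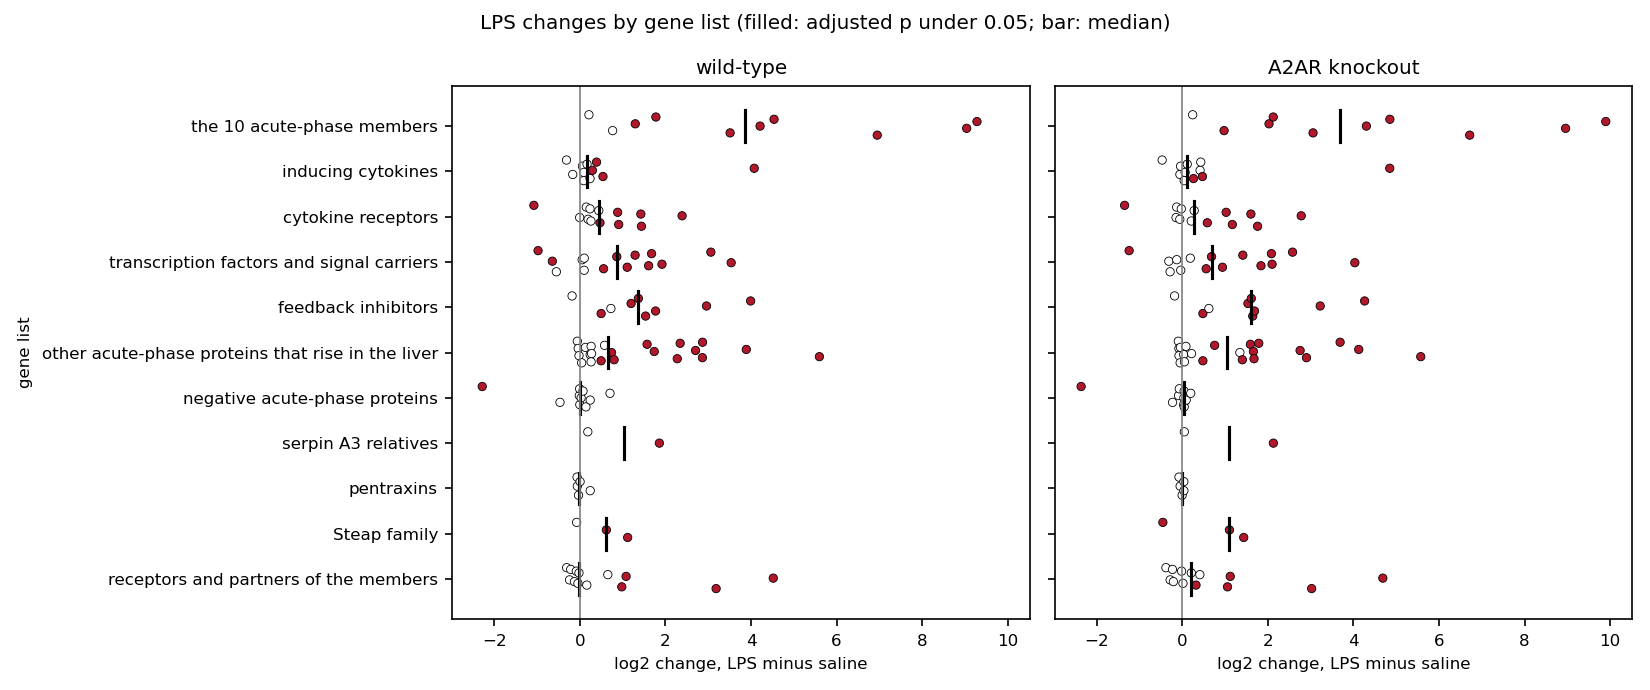
Log2 change from saline to LPS (horizontal axis) of each measured gene in the members' list and the pathway lists (vertical axis), in wild-type and A2AR knockout hearts, with filled points for an adjusted p under 0.05 and a bar at the list median. The members' medians of 3.86 and 3.68 stand beside list medians from -0.03 to 1.37 in WT and -0.00 to 1.61 in KO hearts.

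Whole ventricular tissue was measured, so more cells of a type and more RNA per cell cannot be told apart. Atrial markers, 5 measured, averaged 11.13 to 11.85 in WT saline and 10.66 to 11.20 in WT LPS arrays. In knockout hearts they averaged 11.76 to 11.96 after saline and 10.76 to 11.01 after LPS. Of the 5, 4 fell with LPS in each genotype. Whether the samples held atrial tissue, and in what share, was not tested. Markers of liver, the classic source of these proteins, were read in the same arrays. Alb, the albumin gene, read 3.72 to 4.13 and was under the array median in all 16 arrays, as were Fabp1, Cps1 and Tdo2, which makes 4 of 12 liver markers measured. The other 8 were above the median on some or all arrays, among them Hnf4a on all 16, Serpina1b (3.98 to 5.96) and Cyp2e1 (3.84 to 8.24). The mean of the liver markers was 4.55 to 4.63 in WT saline, 4.18 to 4.79 in WT LPS, 4.43 to 4.55 in KO saline and 4.14 to 4.22 in KO LPS arrays, and none rose with LPS in either genotype, while 2 fell (Cyp2e1 and Serpina1b). Some neutrophil markers also rose with LPS. The mean of all 11 measured was 3.86 to 4.02 in WT saline, 5.29 to 5.76 in WT LPS, 3.91 to 4.02 in KO saline and 5.71 to 5.95 in KO LPS arrays. Of the 11 neutrophil markers measured, 6 rose in each genotype, with the largest changes for S100a8 (4.84 ± 0.17 and 5.57 ± 0.17) and S100a9 (4.86 ± 0.20 and 4.99 ± 0.20). Ngp, a granule protein gene of neutrophils, rose by 2.36 ± 0.38 and 3.24 ± 0.38, whereas Mpo, Elane and Cxcr2 were under the array median in all 16 arrays. Lcn2 and Ptx3 proteins are also stored in neutrophil granules, and the part of infiltrating cells in the rise of the members was not tested. Adipocyte markers, 6 measured, averaged 7.45 to 7.73 in WT saline and 6.55 to 6.99 in WT LPS arrays, and 6.91 to 7.24 in KO saline and 6.45 to 6.71 in KO LPS arrays. Of these 6, 1 rose in each genotype, 3 fell in WT and 2 in KO hearts, Adipoq falling (-4.27 ± 0.40 and -3.33 ± 0.40) and Plin4 rising (1.13 ± 0.09 and 1.40 ± 0.09) in both. Of 10 macrophage and monocyte markers, 1 rose and 3 fell in each genotype. None of 9 endothelial markers rose, while 2 fell in WT and 4 in KO hearts. None of 9 fibroblast markers rose and 3 fell in each genotype, and none of 10 cardiomyocyte markers rose and 5 fell.

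The genes whose pattern was most like that of the members were sought over the 16 arrays, by Pearson correlation with the mean of the members' scaled profiles. The 8 closest were Mt1, Tnfrsf1a, Cxcl1, C1s1 and Uap1 (each 0.990), and Jade2, Cyp1b1 and Ifitm2 (each 0.987). The measure is dominated by the contrast of LPS with saline. With the group means subtracted, the closest were Nabp1 (0.936), Rnf122 (0.935), Arid5b (0.912), Nudt6, Car13 and Slc36a4 (each 0.910), Mid1ip1 (0.909) and Gldc (0.907), and none of these was among the 8 of the first measure. They are the highest values picked from all genes tested, over only 16 arrays. The LPS changes of Nabp1 were -0.57 in WT and -0.83 in KO hearts, and those of Slc36a4 -0.10 and 0.26. The other genes of this second measure had positive changes in both genotypes.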

How the data were processed

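RNA from 16 ventricular samples was hybridised to Affymetrix arrays, and per the submitters' processing notes the authors made the deposited log2 values with RMA (robust multi-array average), with version and settings not given in the sources used here. Quantile normalization, a step of standard RMA, assumes like distributions on all arrays. Read depth does not apply to arrays, and the number of arrays limits the precision. Of 45101 probe sets, 34945 had 1 gene symbol, and the highest by mean was kept for each of 18193 genes. All 16 arrays entered 1 limma fit (version 3.58.1, R 4.3.3) with a mean for each group (moderated variances with an intensity trend, 12 residual degrees of freedom, two-sided tests, Benjamini-Hochberg adjustment over 18193 genes, threshold 0.05). Errors of changes are standard errors. The model was tested on simulated data. The members, lists and motifs were chosen with earlier results of these data known. All members were named and, of each pathway list, up to 3 called genes with the largest wild-type change, besides relatives of a member. Replicate numbers showed no general pairing of the samples. Alternatives were array weights, a filter and a floor on low values, the mean of probe sets, every probe set on its own, subtracted medians, renewed quantile normalization, no variance trend, only the groups compared, a replicate block and leaving out arrays.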

Additional observations from a re-analysis of the deposited data

Results flagged for a closer look

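In 3 of 40 groups (10 genes in 4 groups of 4 arrays), 1 array lay far from the other 3 by Dixon's test at the 95% level. Its gap to the nearest array made up 0.876 to 0.954 of the group's range. Chance alone marks about 1 in 20 groups. For Ptx3 in KO LPS hearts, array 4 read 7.87, against 9.15 for the next and 9.31 for the highest. For Lrg1 in KO LPS hearts, array 2 read 12.73, against 13.27 for the next. For Saa3 in WT saline hearts, array 3 read 4.13, against 4.83 for the next and 4.93 for the highest, all near the array median.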

How the results depend on the processing

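Across the alternatives run, 253 of 278 values of the comparisons as a whole and 2469 of 2617 values of single genes or gene lists kept their direction and side of the threshold or, for counts, stayed within 1.5 times. Signs turned in 49 values of 18 differences, none of them called. From 7 to 10 members were called in each genotype under every alternative, with 7 where the filter on low values left only 7. Saa1, low in all saline arrays, passed that filter through its LPS arrays alone, so the count there is no independent check. The replicate numbers showed no general pairing of the samples. The 24 same-number pairs had correlations from -0.27 to 0.33, 3 of them over 0.1, and 4 of 16 arrays correlated best with their own number. The highest, 0.33, was that of WT LPS array 4 with KO LPS array 4. These counts cannot tell whether single arrays shared a batch, which was not tested. With the replicate block 8 and 9 members and 3537 and 4487 genes were called, against 3798 and 4744 without it. Counts over all genes moved more. For LPS they were 6024 probe sets in wild-type and 7611 in knockout hearts with every probe set on its own. These counts are over more rows than the 18193 genes, so they cannot be set directly against the counts of genes. In settings chosen after seeing the data, 5723 genes were called in wild-type hearts without WT LPS array 4 and KO LPS array 2, and 2061 without WT saline arrays 1 and 4. Leaving out 1 array gave 3006 to 4902 and 3871 to 5527. For knockout against wild-type after saline (1 gene), the count was 21 with array weights, 0 with the filter on low values, 14 with only the groups compared, 9 without WT LPS array 4 and KO LPS array 2, and 1 to 5 leaving out 1 array. After LPS (1 gene) it was 3 with the floor at the array median, 2 with every probe set, 0 with only the groups compared and without WT saline arrays 1 and 4, and 0 to 3 leaving out 1 array. The difference of the responses had 1 with the floor. The causes were not tested. Low signal limits Orm1, Orm2, Saa1 and Saa2, and the saline values of Lcn2 and Ptx3. The Orm2 rise was called in knockout hearts with array weights (0.28, adjusted p = 0.0308) and with subtracted medians (0.26, adjusted p = 0.0496), and with only the groups compared Orm1 (adjusted p = 0.0223) and Orm2 (adjusted p = 0.0472) were called in wild-type hearts. The restriction to the groups compared was not run for the difference of the responses, which uses all groups.

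For the differences whose sign turned, leaving out 1 array or a named pair of arrays gave these ranges. For knockout minus wild-type after saline they were -0.0300 to 0.168 for Saa1, -0.146 to 0.0489 for Saa2, -0.0933 to 0.320 for Saa3 and -0.0318 to 0.0516 for Orm2. After LPS they were -0.36 to 0.44 for Steap4, -0.84 to 0.86 for Ptx3, -0.13 to 0.13 for Lrg1, -0.0133 to 0.154 for Lcn2, -0.00425 to 0.0568 for Saa3, -0.0504 to 0.259 for Serpina3n and -0.0477 to 0.162 for Orm2. In the difference of the responses they were -1.06 to 0.64 for Ptx3, -0.29 to 0.12 for Saa3, -0.0722 to 0.138 for Orm2 and -0.16 to 0.63 for Steap4. With array weights the sign turned after saline for Saa2 (0.0229) and Saa3 (-0.0198), after LPS for Ptx3 (-0.33) and Steap4 (-0.11), and in the difference of the responses for Ptx3 (-0.52) and Saa3 (0.0332). With the mean of probe sets it turned after saline for Saa1 (-0.0601), after LPS for Steap4 (-0.0125) and in the difference of the responses for Ptx3 (-0.0100). With the floor at the array median it turned after saline for Saa2 (0.0025) and Orm1 (0.0025), and for Orm2 with LPS in wild-type (-0.0210) and knockout hearts (-0.0175).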
